A study of Mus musculus with 8 samples.

Results

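The cells described here were chosen by their transcripts as layer 6 corticothalamic neurons of the embryonic mouse cortex, from a single-cell RNA-seq series. The name is that of the rule. Some members described below carried less of the other markers of this type, or transcripts of dividing cells. A cell was a member if it held at least 2 unique molecular identifiers (UMIs, counted transcripts) of Hs3st4 and Rprm together, at least 1 of Tle4, and 0 of Nxph4, Gad1, Gad2 and Eomes. Cells were droplet barcodes with at least 2300 UMIs, at least 800 genes and at most 10% mitochondrial UMIs. The rule found 788 members among 15547 cells: 374 of 7233 in the wild type library and 414 of 8314 in the library called ShhN here.

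The embryos were CD1 mice, an outbred stock, and all cortices were taken at E16.5 (embryonic days). In the ShhN group a plasmid for ShhN, the signalling fragment of sonic hedgehog (SHH), had been electroporated into the cortex in utero at E13.5. The wild type group came from littermates, and the labels do not say whether these carried a control plasmid. Electroporation reaches only some of the progenitors along the ventricle, so the ShhN library holds cells with and without plasmid. Each group has 4 samples in the labels, but its cells form 1 matrix with 1 barcode suffix and could not be traced to a sample. Each group was therefore 1 library, no test between groups was possible, and every interval below is a 95% interval that covers counting error only.

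Corticothalamic neurons are excitatory neurons of the deepest cortical layer that send their axons to the thalamus and receive thalamic input in return. TBR1 and SOX5 are transcription factors that set their identity apart from the subcerebral neurons of layer 5 and from neurons that project within the cortex. FEZF2 is a transcription factor of both corticothalamic and subcerebral neurons. SHH signals through its receptor PTCH1, which is itself a target gene of the pathway, and is known in the cortex mainly for its action on progenitors.

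The genes that chose the members have different kinds of product. Rprm, a gene of the reprimo family linked to cell cycle arrest, lies on chromosome 2 from 54084093 to 54085552. Hs3st4, which adds a sulfate to heparan sulfate chains, lies on chromosome 7 from 123982869 to 124398989. Tle4, a Groucho family corepressor, lies on chromosome 19 from 14448150 to 14598051 (GENCODE annotation of GRCm38). The 250 bases upstream of the RefSeq start of each (GRCm38.p6) are shown because membership rested on these transcripts being found in the same cell. They run 5′ to 3′ on the gene's strand, with each CpG in capitals.
Rprm, chr2:54085553-54085802, minus strand: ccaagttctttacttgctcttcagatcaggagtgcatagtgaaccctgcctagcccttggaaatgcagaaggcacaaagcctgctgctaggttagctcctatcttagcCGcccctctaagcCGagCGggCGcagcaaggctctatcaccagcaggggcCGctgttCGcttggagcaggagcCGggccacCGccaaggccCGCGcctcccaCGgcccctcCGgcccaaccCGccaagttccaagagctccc
Hs3st4, chr7:123982578-123982827, plus strand: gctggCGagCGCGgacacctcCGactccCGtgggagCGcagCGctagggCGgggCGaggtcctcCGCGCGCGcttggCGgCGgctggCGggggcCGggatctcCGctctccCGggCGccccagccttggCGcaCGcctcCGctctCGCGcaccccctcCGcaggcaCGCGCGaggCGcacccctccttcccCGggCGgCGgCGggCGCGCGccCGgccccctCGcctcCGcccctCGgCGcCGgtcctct
Tle4, chr19:14598184-14598433, minus strand: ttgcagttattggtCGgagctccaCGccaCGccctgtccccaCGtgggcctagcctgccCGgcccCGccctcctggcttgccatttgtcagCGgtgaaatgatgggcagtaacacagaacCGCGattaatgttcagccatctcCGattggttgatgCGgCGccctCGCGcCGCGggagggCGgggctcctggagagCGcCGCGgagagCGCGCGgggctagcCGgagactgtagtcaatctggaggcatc
The windows held 13 CpGs for Rprm, 43 for Hs3st4 and 24 for Tle4, against a median of 6 over 32851 RefSeq promoters cut the same way. As many CpGs as in the Hs3st4 window were present in 0.712% of those promoters, as many as in the Tle4 window in 11.98%, and as many as in the Rprm window in 31.5%. Neither the T-box letters GGTGTG nor the SOX letters AACAAT stood on either strand of the 3 windows, while 16.3% and 9.42% of all promoters held them. Tle4 has another RefSeq start, not shown, whose window held the SOX letters once.

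The libraries held 63760199 UMIs (wild type) and 69470062 UMIs (ShhN), of which 78.7% and 87.5% lay in cells. Members carried a median of 7612 UMIs (wild type) and 7388 UMIs (ShhN), with 2628 and 2473 genes, and 4.10% and 4.04% of their UMIs were mitochondrial. The libraries shared 79 cell barcodes, against 81.6 expected for independent draws. Doublets were called in each library but kept: 27 wild type members (7.22%) and 28 ShhN members (6.76%) were called, against 3.86% and 2.92% of all cells.

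The members' shares of cells were close in both libraries. They made up 5.17% of wild type cells (Clopper-Pearson interval 4.67 to 5.71) and 4.98% of ShhN cells (4.52 to 5.47). The ratio of the shares, ShhN over wild type, was 0.963 (0.835 to 1.11). Over excitatory neurons alone it was 0.979, from 367 of 5026 and 408 of 5705 cells. The share depended on the Tle4 term of the rule: with Tle4 not required, 19.7% of wild type and 14.6% of ShhN cells qualified, a ratio of 0.742 (0.687 to 0.802). At the edge of the rule, 52 wild type and 55 ShhN members held exactly 2 UMIs of Hs3st4 and Rprm, and 116 and 105 cells that met the other terms held 1. Nxph3 was found in 13.46% and 16.4% of the former and in 7.76% and 6.67% of the latter. The cells just outside the rule thus held Nxph3, a corticothalamic marker, at lower shares in each library, on few cells and with no test. Depth was not made equal for these shares. Median UMIs inside and outside were 6492.5 and 6563 in the wild type library, and 7855 and 7181 in the ShhN library. Tbr1, Sox5, Fezf2, Bcl11b and Zfpm2 were also found at lower shares outside in each library. In the wild type library the gap was small for Bcl11b (69.23% inside, 67.24% outside) and Fezf2 (59.62% and 55.17%). Foxp2 went the other way there, at 11.54% inside and 12.93% outside, but not in the ShhN library (14.55% and 7.62%).

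The cells carried corticothalamic markers beyond those that chose them, and these are given as a description, since members and comparison cells come from the same libraries. Nxph3, a secreted ligand of neurexins, stood at 61.0 CPM (UMIs scaled to a common total over the summed cells) in wild type members and at 46.8 CPM in ShhN members. In the other excitatory neurons of the same libraries it stood at 7.34 and 4.47 CPM. Foxp2, a forkhead transcription factor of layer 6, was at 77.8 and 89.2 CPM in members and at 15.5 and 9.68 CPM in the other excitatory neurons. Both genes were at or below 8.45 CPM in layer 5-type neurons (other excitatory neurons with at least 2 Bcl11b UMIs, 1 of Fezf2 or Ldb2 and 0 of Hs3st4, Rprm and Nxph4; 182 and 352 cells). Syt6, a synaptotagmin, stood at 44.0 and 51.7 CPM in members and 5.36 and 5.56 CPM in the other excitatory neurons.

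The transcription factors separated the members from some neighbouring classes and not from others. Sox5 was at 570 and 610 CPM in members, 215 and 240 CPM in layer 5-type neurons, and 188 and 216 CPM in all other excitatory neurons. Fezf2 was at 387 and 377 CPM in members and at nearly the same level, 367 and 331 CPM, in layer 5-type neurons, whose definition it enters. Tbr1 was at 147 and 152 CPM in members, 37.3 and 62.8 CPM in layer 5-type neurons and 72.1 and 79.8 CPM in all other excitatory neurons. Subplate-type neurons (at least 2 Nxph4 UMIs), which share a deep position and an early birth with layer 6 cells, numbered only 42 and 25. Their Nxph3 stood at 79.9 and 62.3 CPM, not below the members, and they were set apart from them by the Nxph4 term of the rule. Their Tbr1, at 146 and 218 CPM, was close to or above that of the members. Sox5, at 197 and 317 CPM, and Fezf2, at 153 and 197 CPM, were lower in them. Foxp2 was at 35.2 CPM in the wild type library and at 83.1 CPM (47.5 to 135) in the ShhN library. Their Syt6 was lower in the wild type library, at 7.05 CPM, and uncertain in the ShhN library, at 20.8 CPM (5.66 to 53.2).

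**Figure D1:**
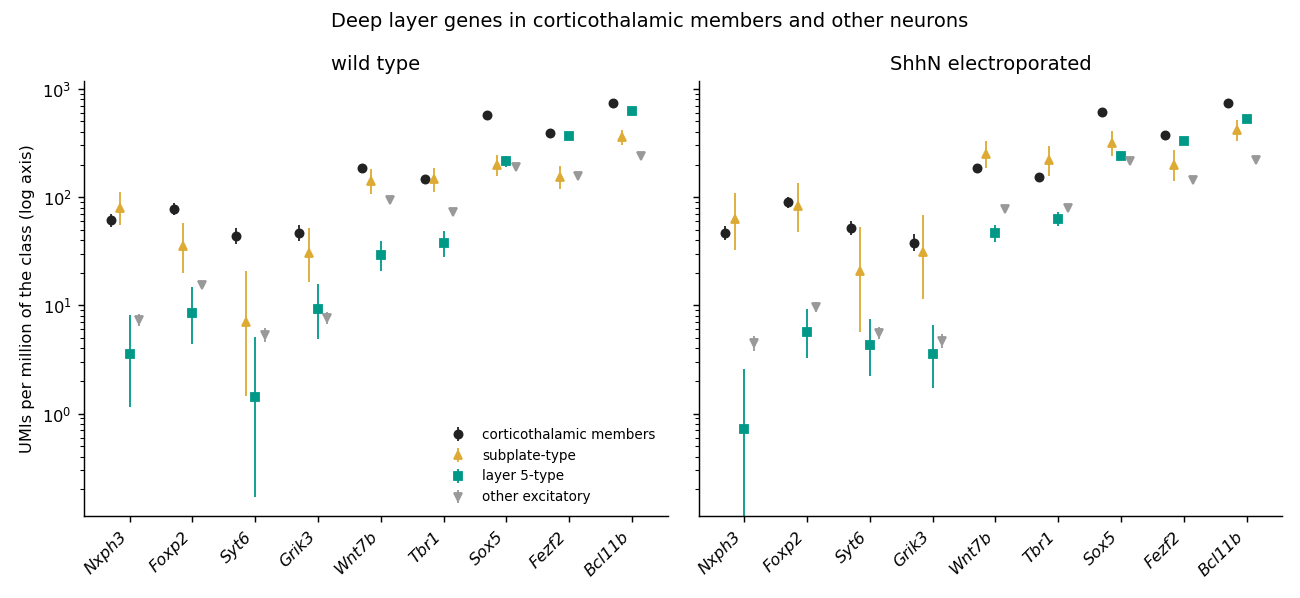
CPM (log axis) of 9 genes in corticothalamic members, subplate-type, layer 5-type and other excitatory neurons, for the wild type library (left) and the ShhN library (right). Points are summed levels of a class in 1 library and bars their 95% Poisson intervals. Nxph3 is at 61.0 and 46.8 in members and at 3.52 and 0.714 in layer 5-type neurons, while Fezf2 does not separate these classes.

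Of the genes found in at least 25% of members of each library, Hs3st4, Rprm and Tle4 left out because they chose the cells, those with the highest levels relative to the other excitatory neurons were, after Nxph3, Grik3, Igfbp3, Kctd12, Adcy1, Foxp2, Kif26a, Akap7, Vcan and Rgs6. Grik3 encodes a kainate receptor subunit, with log2 ratios of 2.61 (wild type) and 3.02 (ShhN). Igfbp3 encodes a protein that binds insulin-like growth factors, with 2.61 and 3.33. Kctd12 encodes an auxiliary subunit of GABA-B receptors, and stood at 139 and 173 CPM in members against 23.9 and 19.2 CPM. Adcy1, an adenylyl cyclase, had ratios of 2.39 and 2.76, and Vcan, the matrix proteoglycan versican, 2.15 and 2.48. Against all other cells the list also held Lrrtm3, Gpr22, B3gat1, Cntn1, Cacna1e, Cnih3 and Ephb1. B3gat1, which makes the HNK-1 carbohydrate, was found in 69.3% and 72.9% of members. Cntn1, a cell adhesion molecule of axons, and Ephb1, a receptor for ephrins, stood at 58.1 and 53.5 CPM and at 144 and 134 CPM in members.

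At equal depth the members were mixed in which factors could be seen in a single cell. Members with at least 4500 UMIs were thinned to that number, which kept 323 wild type and 377 ShhN members and left out 51 and 37. Bcl11b, a zinc finger factor of deep layer neurons, was then found in 79.9% of wild type and 85.1% of ShhN members (87.2% and 92.0% before thinning), Sox5 in 77.1% and 85.7% (86.6% and 93.7%), and Fezf2 in 67.5% and 69.5% (77.0% and 77.8%). Tbr1 was found in 45.8% and 47.2%. Endothelial and mural cells, called vascular below, served as a background of free RNA. They needed 3 UMIs of vascular genes and 0 of Neurod2 and Neurod6. Leaving out cells with these neuronal transcripts may make the background too low for neuronal genes, here and below. The 29 vascular cells of each library had medians of 7473 and 6862 UMIs, and thinning kept 22 wild type and 25 ShhN cells. Of the thinned cells 2 and 0 held Bcl11b, 2 and 1 Sox5, 0 and 1 Fezf2, and 2 and 1 Tbr1. Sox5 and Fezf2 were seen together in 56.0% of wild type members (50.4 to 61.5) and 60.7% of ShhN members (55.6 to 65.7), and Tbr1 and Bcl11b together in 40.6% and 43.5%. Only 4.33% and 2.65% of members showed none of Tbr1, Sox5, Fezf2 and Bcl11b. Hs3st4 itself was found in 35.6% of wild type members (30.4 to 41.1) and 43.5% of ShhN members (38.4 to 48.7), intervals that overlap, so Rprm with Tle4 carried most of the choice.

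**Figure D2:**
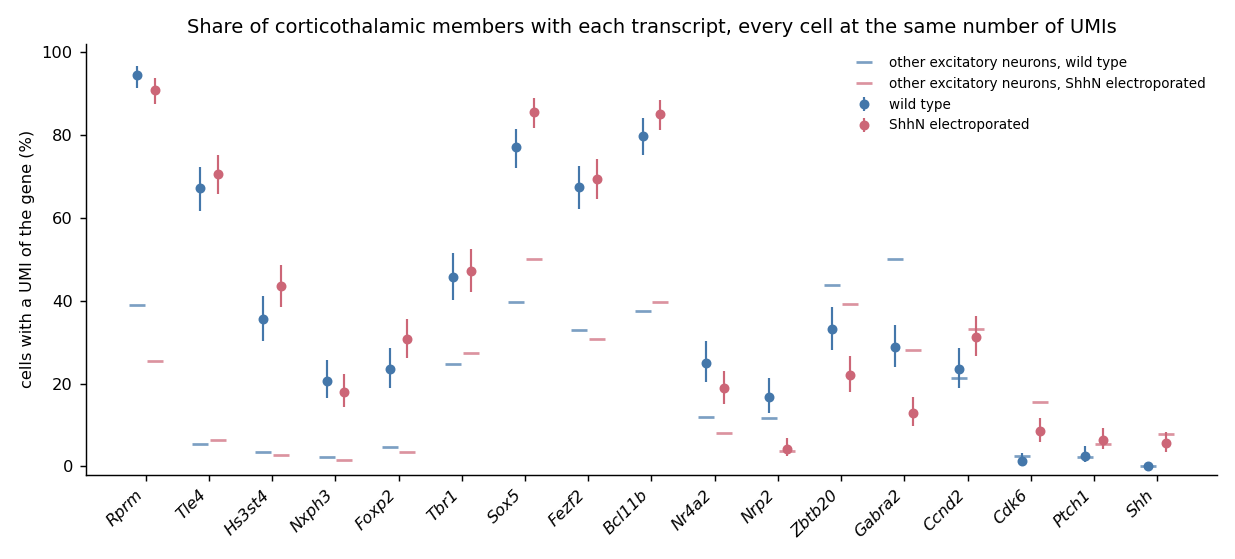
Percent of corticothalamic members with a UMI of each of 17 genes after every cell was thinned to 4500 UMIs, wild type in blue and ShhN in red. Points carry 95% Clopper-Pearson intervals and the dashes give the other excitatory neurons of the same library. Sox5 is found in 77.1% and 85.7% of members, Hs3st4 in 35.6% and 43.5%, and Gabra2 in 28.8% and 13.0%.

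Members with an Hs3st4 UMI carried more of some other corticothalamic genes, Foxp2, Tbr1 and Nxph3 among them, than members without one, in both libraries. They numbered 173 of 374 wild type members (46.3%, 41.1 to 51.5) and 237 of 414 ShhN members (57.2%, 52.3 to 62.1), and their median depth was lower, 7336 against 7907 and 6955 against 7837 UMIs. Differences are counted by a size rule that asks for 50 UMIs or more in the members of the library or libraries compared, a log2 ratio of 1 or beyond either way, and an interval whose bound nearest 0 lies at 0.5 or beyond. Within the wild type library 55 of 6364 genes were higher by this rule (0.864%) and 65 lower (1.02%), and within the ShhN library 71 of 6522 (1.09%) and 41 (0.629%). In both libraries 28 were higher and 17 lower, Hs3st4 itself among the former. Of the 15 listed corticothalamic markers 6 were higher in both libraries and 0 lower: Nxph3, Foxp2, Tbr1, Syt6, Ppp1r1b and Grik3. Foxp2 was at 131 and 132 CPM with Hs3st4 and at 34.5 and 37.4 CPM without it. Tbr1 was at 203 and 202 CPM against 101 and 90.9 CPM, and Nxph3 at 92.9 and 69.8 CPM against 35.1 and 18.7 CPM. Akap7, Caln1 and Necab1, genes of cAMP and calcium signalling, were higher with log2 ratios of 1.87 to 2.70, and so were Adcy1 (1.59 and 1.56) and Kitl, the ligand of the KIT receptor (1.49 and 2.62). Bcl11b did not differ by this rule (log2 0.13 and 0.03), nor did Fezf2 (-0.04 and -0.40) and Sox5 (0.73 and 0.35). Crym, which encodes a protein that binds thyroid hormone, did not pass either, at -0.69 (-0.98 to -0.40) in wild type and 0.21 in ShhN members.

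The genes lower in members with an Hs3st4 UMI were led by genes of glia and of less mature cells. Fabp7, a fatty acid binding protein of radial glia, was at 20.5 and 32.3 CPM with Hs3st4 and at 310 and 251 CPM without it. Vim, the intermediate filament of radial glia, was at 41.7 and 53.4 CPM against 185 and 177 CPM, and Dbi had log2 ratios of -2.12 and -1.55. Mfap4, listed here among intermediate progenitor markers, had -3.12 and -1.84. Gabra2, a GABA-A receptor subunit, was at 59.97 and 33.8 CPM against 220 and 87.0 CPM, and Nrp1, a semaphorin receptor, had -1.95 and -1.08.

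Nrp2, a receptor for class 3 semaphorins on chromosome 1 from 62703285 to 62818695, marked members that were unlike the rest in both libraries. It was found in 78 wild type members (20.9%, 16.8 to 25.3) and 22 ShhN members (5.31%, 3.36 to 7.94). These cells were deeper, with medians of 10764 and 11723.5 UMIs against 7100.5 and 7263.5, and at equal depth 16.7% and 4.24% of members held the gene. The same was true of 3 of 22 and 1 of 25 vascular cells, a cell type that can itself express Nrp2. In the wild type library 110 genes were higher in these members (1.73%) and 85 lower (1.34%), in the ShhN library 72 (1.1%) and 88 (1.35%), with 45 and 43 in both. Zbtb20, a zinc finger repressor known for its part in forming the hippocampus, stood at 2020 and 1563 CPM with Nrp2 and at 192 and 81.6 CPM without it. Neurod1, a bHLH factor of young neurons, was at 363 and 346 CPM against 60.5 and 31.8 CPM. Fgfr1, St6galnac5 and Gabra2 were also higher, with log2 ratios of 2.33 to 3.27.

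Several corticothalamic genes were lower in the Nrp2 members, and 1 was higher. Of the 15 listed markers 6 were lower in both libraries, among them Foxp2, Sox5 and Nxph3, and Crym was higher, at 274 and 380 CPM with Nrp2 and at 97.5 and 120 CPM without it. Foxp2 was at 16.8 and 3.40 CPM with Nrp2 and at 101 and 97.2 CPM without it, and Hs3st4 at 34.9 and 27.2 CPM against 166 and 168 CPM. Tbr1 was at 68.6 and 61.2 CPM against 176 and 160 CPM, while Bcl11b, at 545 and 557 CPM against 819 and 749 CPM, differed less. Fezf2 had log2 ratios of -0.73 and -0.07 and did not pass. In the other excitatory neurons Foxp2 was at 15.5 and 9.68 CPM, Tbr1 at 72.1 and 79.8 CPM and Sox5 at 188 and 216 CPM. The Nrp2 members, with Sox5 at 237 and 207 CPM, lay near these levels or, for Foxp2 in the ShhN library, below them. Whether the name corticothalamic holds for the Nrp2 members was not tested. Rorb, a nuclear receptor listed here among upper layer markers, had log2 ratios of -2.65 and -2.52, Sox5 -1.55 and -1.64, Ssbp2 -1.52 and -2.04, and Sla -1.68 and -2.21. Rprm and Tle4, by which all members had been chosen, were lower too. Rprm was at 599 and 343 CPM with Nrp2 and at 892 and 809 CPM without it (log2 -0.57 and -1.24). Tle4 was at 135 and 115 CPM against 234 and 233 CPM (-0.80 and -1.01). The rule asks for a fixed number of UMIs, which deeper cells such as these meet more easily. In the wild type library 64 of 201 members without Hs3st4 held Nrp2 (31.8%), and 14 of 173 with Hs3st4 (8.09%); in the ShhN library it was 16 of 177 (9.04%) and 6 of 237 (2.53%).

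A further set of members held transcripts of dividing cells. A UMI of Mki67, Top2a or Cenpf, which are made in cycling cells, was found in 15 wild type members (4.01%, 2.26 to 6.53) and 43 ShhN members (10.4%, 7.62 to 13.7). By the size rule 58 genes were higher in these cells in the wild type library (0.911%) and 15 lower (0.236%), and 151 (2.32%) and 47 (0.721%) in the ShhN library, with 32 and 4 in both. Hmgb2, a chromatin protein of cycling cells, was at 811 and 958 CPM against 25.5 and 34.3 CPM. Fabp7 was at 1176 and 801 CPM against 129 and 26.5 CPM, Vim at 561 and 375 CPM against 98.3 and 67.8 CPM, and Sox2, a factor of neural progenitors, at 149 and 125 CPM against 3.79 and 6.04 CPM. Rprm, a gene of the rule, was at 845 and 506 CPM against 810 and 810 CPM (log2 0.06 and -0.68). Bcl11b was lower, at 500 and 474 CPM against 757 and 773 CPM (-0.60 and -0.71). Fezf2 was at 426 and 187 CPM against 385 and 407 CPM (0.14 and -1.12). Npy was lower in them, with log2 ratios of -1.79 and -1.53. The part of doublets was not tested beyond leaving out those called; called doublets held 22.7% of the Top2a UMIs of wild type members and 34.5% of those of ShhN members.

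**Figure D3:**
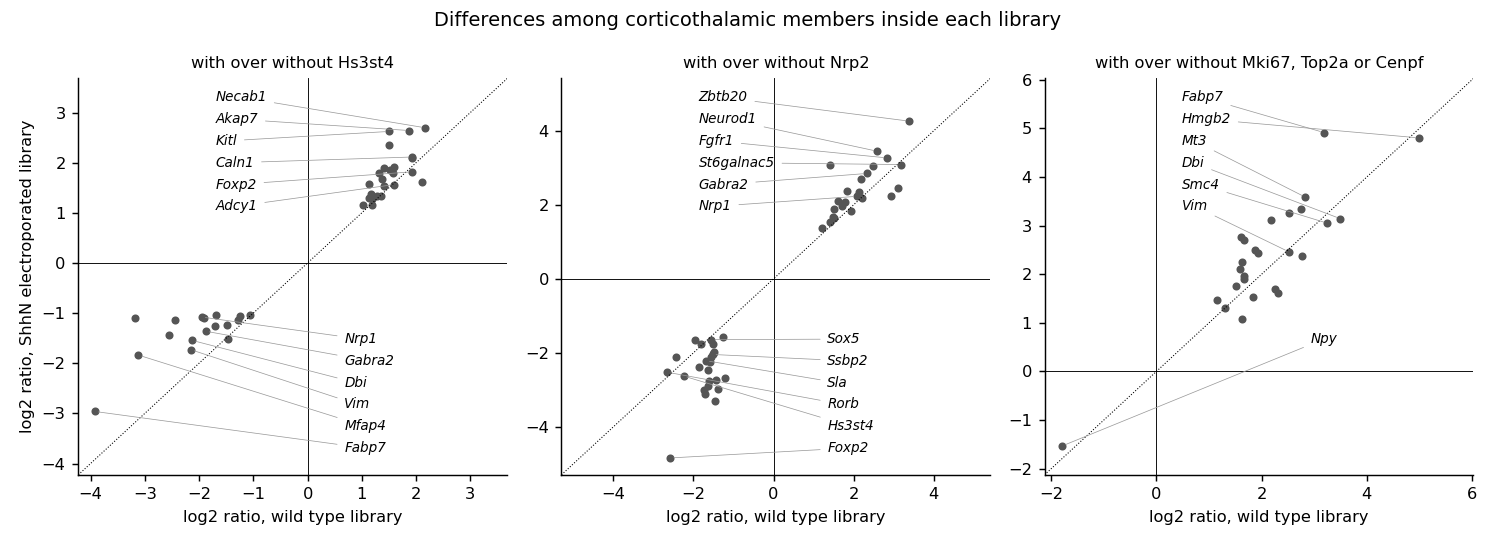
Log2 ratios inside the wild type library (horizontal axis) and inside the ShhN library (vertical axis) for genes past the size rule in both, between members with and without an Hs3st4 UMI (left), an Nrp2 UMI (middle) and a Mki67, Top2a or Cenpf UMI (right). Each point is a gene, at most 25 a direction are drawn, the dotted line marks equal ratios, and genes that define a split, globins, gene models without a name and 1 further gene of the middle split are left out. Foxp2 sits at 1.92 and 1.82 on the left and at -2.58 and -4.84 in the middle.

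Between the libraries the log2 ratios of the corticothalamic markers, ShhN over wild type, ran from -0.38 for Nxph3 to 0.53 for Ppp1r1b. Of 8309 genes measured in the members (at least 50 UMIs over both libraries), 31 were higher in the ShhN library by the size rule (0.373%) and 34 lower (0.409%). All 15 corticothalamic markers outside the rule were measured and 0 passed it in either direction, a count that the shares over all genes would also give. Their median was 0.04, beside -0.08 over all measured genes. In the layer 5-type neurons 26 of 7152 genes were higher (0.364%) and 39 lower (0.545%). In the other excitatory neurons, where 171 of 12052 genes were higher (1.42%) and 161 lower (1.34%), the same markers had a median of -0.26. Wild type members held 237 Foxp2 UMIs and ShhN members 307, a log2 ratio of 0.20 (-0.05 to 0.45). Tbr1 had 447 and 523 UMIs (0.05, -0.13 to 0.24), Sox5 1737 and 2099 (0.10, 0.00 to 0.19), and Fezf2 1180 and 1299 (-0.04, -0.15 to 0.08). Nxph3 had 186 and 161 UMIs (-0.38, -0.70 to -0.07). Zfpm2, a cofactor of GATA proteins, had 88 and 93 UMIs (-0.10, -0.53 to 0.34), and Ppp1r1b, which encodes DARPP-32, had 148 and 241 (0.53, 0.23 to 0.83). The sign of the small ratios depended on which members were counted: without the Nrp2 members the median of the 15 was -0.13, Sox5 came to -0.10 (-0.20 to -0.01) and Fezf2 to -0.20 (-0.32 to -0.07).

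Genes of neighbouring identities went both ways within the limits of the rule. Of 6 measured layer 5 markers and of 12 measured upper layer and callosal markers 0 passed, with medians of 0.15 and 0.11, and with so few genes these counts are no result about the lists. Bcl11b had 2268 and 2522 UMIs (log2 -0.02), while S100a10, listed with layer 5 markers, was at 49.2 and 83.4 CPM (0.76, 0.47 to 1.06). In layer 5-type neurons S100a10 was lower than in members, at 12.7 and 22.5 CPM, so it did not mark that class here. Of the upper layer markers, the POU factor Pou3f2 was at 99.4 and 167 CPM (0.75, 0.55 to 0.95) and Rorb at 111 and 182 CPM (0.72, 0.52 to 0.91). In the other excitatory neurons Pou3f2 was above the members, at 325 and 469 CPM, and Rorb below them, at 33.8 and 45.1 CPM. Lhx2, a LIM homeobox gene, was at 213 and 131 CPM (-0.70, -0.88 to -0.53). Of the families of the genes that chose the members, 0 of 17 measured heparan sulfate genes, with a median of 0.09, passed, and 0 of 5 Groucho genes, with -0.14. Of the neurexophilins and neurexins 3 were measured and 0 passed, with a median of -0.38. The rule genes themselves are a description only: Hs3st4 had 396 and 536 UMIs, Rprm 2474 and 2648, and Tle4 631 and 766.

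Shh was read in ShhN members and in no wild type member. Its 409 UMIs lay in 28 of 414 ShhN members (6.76%, 4.54 to 9.63), at 119 CPM. Against the floor of 3 counts for the wild type library, where 0 UMIs were read, the ratio is 121-fold (log2 6.92), and the lower bound of its interval is 6.61 on the log2 scale. Of 374 wild type members 0 held it, which at 3 counts allows a share of up to 0.802%. A single cell held 273 of the UMIs and the top 5 cells 85.6%. In the other excitatory neurons 454 of 5297 ShhN cells held Shh (8.57%, 7.83 to 9.36). The matrix does not tell plasmid transcripts from those of the gene. Free RNA of the ShhN library, taken from barcodes of 1 to 50 UMIs, held Shh at 116 CPM, close to the 119 CPM of the members; after thinning, 5.57% of ShhN members and 0 of 25 vascular cells held a UMI. How many of the 15 members with fewer than 3 Shh UMIs owe them to free RNA was not tested.

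Of the SHH pathway, the receptor genes Ptch1 and Gas1 and the cyclin gene Ccnd2 were higher in ShhN members. Ptch1, on chromosome 13 from 63508328 to 63573598, had 20 UMIs in wild type and 83 in ShhN members, 6.56 and 24.1 CPM (log2 1.88, 1.16 to 2.66). It was found in 20 wild type members with 1 UMI each and in 49 ShhN members with up to 10. Only 2 of the 28 members with a Shh UMI held Ptch1, and 47 of the 386 without one. Gas1, a coreceptor of SHH, had 25 and 68 UMIs (1.27, 0.59 to 1.99), 64.0% and 70.6% of them in 5 cells, and Ccnd2, a cyclin of early cell cycle, 246 and 564 (1.02, 0.80 to 1.24). Of 9 listed target genes 5 were measured, and 2 passed the rule, Ptch1 and Ccnd2, 40.0% of the measured list beside 0.373% of all genes. The list's median was 0.54, and it came to 0.17 with members thinned to 4500 UMIs, 1.26 in members with an Hs3st4 UMI and 0.22 without Nrp2 and dividing members. Of 13 ligand, receptor and mediator genes 5 were measured and 2 passed, Shh and Gas1. Smo, the transducer of the pathway, had 45 and 42 UMIs (-0.28, -0.92 to 0.36) and Bcl2 338 and 367 (-0.06, -0.27 to 0.16). Gli1, the most direct target, had 0 and 7 UMIs and Hhip 1 and 12, under the minimum of 50. Without called doublets Gas1 came to 1.02 with a lower bound of 0.27 and Ccnd2 to 0.81, and neither passed. In the other excitatory neurons Ptch1 stood at 5.18 and 15.6 CPM, with a log2 ratio of 1.59. Free RNA of the ShhN library held Ptch1 at 31.0 CPM and Ccnd2 at 405 CPM, above the members, against 8.55 and 97.8 CPM in the wild type library. Of the 83 Ptch1 UMIs, 40 lay in the 43 ShhN members with transcripts of dividing cells, at 86.1 CPM, and 43 in the other 371, at 14.4 CPM. In the wild type library these groups held 1 and 19 UMIs, at 6.76 and 6.55 CPM. Their log2 ratio was 0.04 (-5.33 to 2.70), and 1 UMI is too few to show whether they differed.

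Dividing cell markers were higher in ShhN members, and 8 of the 31 higher genes were on that list. Further cell cycle genes outside the list, among them Cdk6, Cenpa, Spc25, Ccna2, Cks2 and Cdc20, were also among the 31. Of the 13 listed 10 were measured and 8 passed the rule, 80.0% beside 0.373% of all genes, with a median of 2.31. In the other excitatory neurons the same list had a median of 2.02, with Cdk6 at 2.57 and Top2a at 2.48. Cdk6, a kinase of early cell cycle, had 9 UMIs in 7 wild type members and 126 in 50 ShhN members (log2 3.63, 2.66 to 4.79). Free RNA held Cdk6 at 35.1 and 203 CPM, above the 2.95 and 36.6 CPM of the members, and with 5% of the UMIs taken as free RNA and subtracted the log2 ratio was 4.33 (2.93 to 6.24). With that subtraction 27 genes were higher, of which 25 were among the 31. Cenpf, a kinetochore protein, had 13 and 113 UMIs (2.94, 2.11 to 3.90), and Top2a, a topoisomerase of dividing cells, 22 and 119 (2.26, 1.59 to 2.99). Ube2c, which serves mitotic exit, had 27 and 168 UMIs (2.46, 1.87 to 3.11). Cenpa, Birc5, Spc25, Nusap1, Cdk1 and Ccna2, all of mitosis, had log2 ratios from 2.26 to 2.81. Without called doublets Nusap1 (8 and 39 UMIs, 2.13) and Ccna2 (8 and 33 UMIs, 1.88) did not pass. Olig1, a factor of the oligodendrocyte lineage, had 2 and 112 UMIs (5.63), and the 112 lay in 4 cells, each with a transcript of dividing cells. With the 15 and 43 members that held Mki67, Top2a or Cenpf left out, 5 of 7996 genes were higher (0.0625%), of which 4 were among the 31, and 33 were lower (0.413%), of which 26 were among the 34. Cdk6 was one of them, with 6 and 45 UMIs (2.87, 1.63 to 4.39), while Ccnd2 came to 0.32 and Gas1 to 0.49.

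The genes lower in ShhN members included Nrp2 and, of the genes named above as high in the Nrp2 members, Zbtb20, Neurod1 and Gabra2. Nrp2 itself had 278 UMIs in wild type and 84 in ShhN members, 91.2 and 24.4 CPM (log2 -1.90, -2.27 to -1.55). Zbtb20, on chromosome 16 from 42875881 to 43642602, had 2105 UMIs in wild type and 717 in ShhN members, 691 and 208 CPM (-1.73, -1.85 to -1.61). At equal depth 33.1% and 22.0% of members held it, beside 5 of 22 (22.7%) and 8 of 25 (32.0%) vascular cells. Whether vascular cells express Zbtb20 themselves was not tested. The members' level was above free RNA in the wild type library (691 against 401 CPM) and below it in the ShhN library (208 against 336 CPM). Neurod1 had 436 and 202 UMIs (-1.29, -1.53 to -1.04) and Gabra2 452 and 199 (-1.36, -1.61 to -1.12). Nefl, the light neurofilament, had 120 and 24 UMIs (-2.50), and 70.0% of the 120 lay in 5 cells. Grp, a neuropeptide gene, had 53 and 8 UMIs (-2.90), Lhx9, a LIM homeobox gene, 65 and 15 (-2.29), and Trps1, a GATA-type factor, 94 and 27 (-1.98). Fam19a1 and Fam19a2, which encode secreted proteins of the brain, had -2.69 and -2.01. Calb2, which encodes calretinin, had -2.06, and Col12a1, a collagen gene, -2.28. Each gene named here was also lower in the other excitatory neurons of the ShhN library, with log2 ratios from -0.41 for Neurod1 to -3.04 for Grp. Nrp2 had -2.01 there, Nefl -1.68, Gabra2 -1.15 and Zbtb20 -0.95. Free RNA held Zbtb20 at 401 and 336 CPM and Nrp2 at 47.5 and 10.9 CPM in the wild type and ShhN libraries; with free RNA subtracted 35 genes were lower, of which 32 were among the 34.

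**Figure D4:**
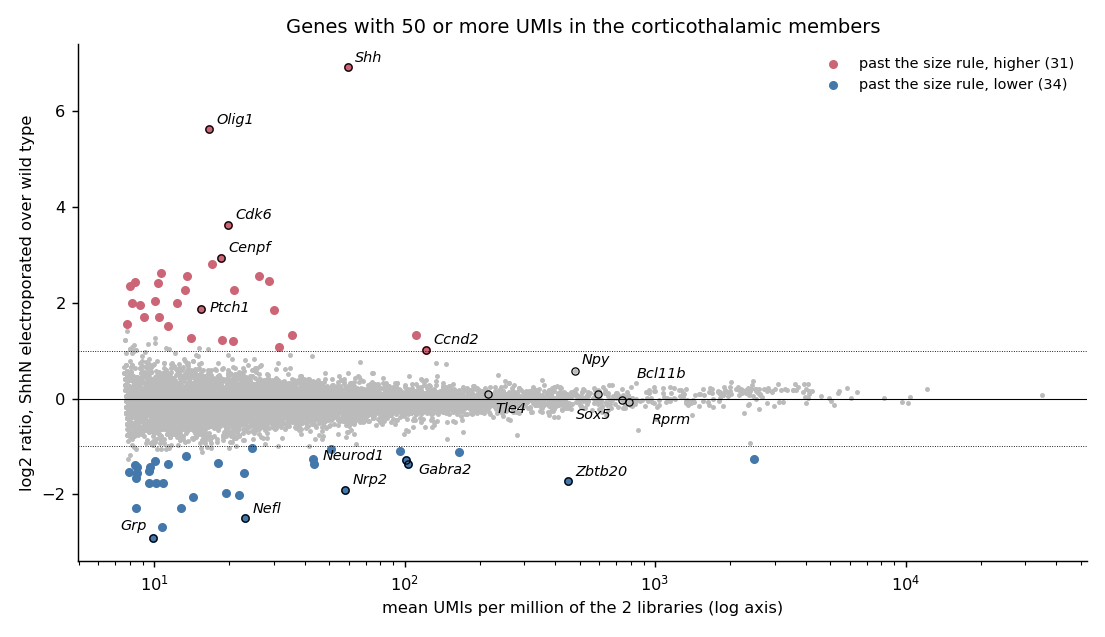
Log2 ratio, ShhN over wild type, against the mean level in CPM (log axis) for the 8309 genes with at least 50 UMIs in the members. Red and blue points pass the size rule as higher (31 genes) and lower (34 genes), circled genes are named and dotted lines mark a log2 ratio of 1 in size; Rprm, Tle4, Sox5 and Bcl11b lie near 0.

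The list of lower genes depended on which members were counted. Without the Nrp2 members 7 of 7787 genes were lower (0.0899%), of which 5 were among the 34, and 23 were higher (0.295%), all 23 among the 31. Zbtb20 was one of the 5, with 426 and 257 UMIs (-1.24, -1.46 to -1.01). Among members with an Hs3st4 UMI alone, 7 of 6396 genes were lower (0.109%) and only Hbb-bs, a globin, was among the 34. Zbtb20 there had 232 and 310 UMIs (log2 -0.05, -0.30 to 0.20), and Neurod1 36 and 73 (0.55, -0.04 to 1.17). Gabra2 had 82 and 64 (-0.83, -1.32 to -0.34) and Nrp2 34 and 26 (-0.85, -1.65 to -0.08). The other 6 of the 7 were chosen after their values were seen: the globins Hbb-bt and Hba-a1, the gene model Gm15594, the cadherin gene Cdh8 (38 and 17 UMIs, -1.63), and the activity-driven genes Egr1 (145 and 96, -1.06) and Npas4 (58 and 33, -1.28). In the same cells 15 genes were higher (0.235%), of which 12 were among the 31. They held Shh, Cdk6 (1 and 55 UMIs), Ccnd2 (85 and 343, log2 1.55) and Ptch1 (11 and 43), besides Cenpf, Top2a, Ube2c and Hmgb2. The 3 outside the 31 were S100a10, Sstr2 and Nt5dc2 (13 and 51 UMIs). S100a10, listed with layer 5 markers, had 66 and 197 UMIs (1.11, 0.70 to 1.53). Sstr2, a somatostatin receptor gene listed with intermediate progenitor markers, had 30 and 90 (1.12, 0.51 to 1.77). Foxp2 stood at 131 and 132 CPM, Tbr1 at 203 and 202 CPM and Sox5 at 731 and 675 CPM in these cells. Some of the 34 lower genes were left with too few UMIs to be measured but not with small ratios: in Hs3st4 carriers Calb2 had 32 and 7 UMIs (-2.66, -4.08 to -1.45) and Grp 10 and 2 (-2.79, -6.02 to -0.56). Without the Nrp2 members Grp had 11 and 2 UMIs (-2.97, -6.18 to -0.77), Lhx9 15 and 4 (-2.41, -4.46 to -0.76) and Calb2 12 and 5 (-1.77, -3.63 to -0.16).

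**Figure D5:**
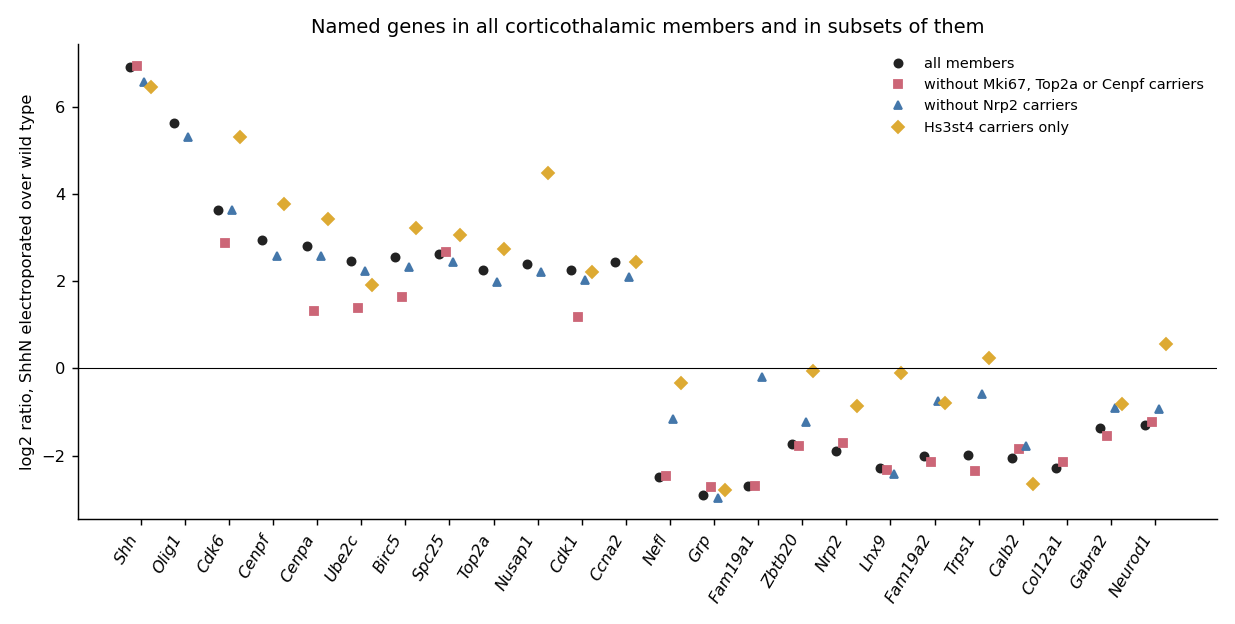
Log2 ratio, ShhN over wild type, of the 24 named genes in all members (black), without carriers of Mki67, Top2a or Cenpf (red), without Nrp2 carriers (blue) and in Hs3st4 carriers alone (yellow); points that rest on fewer than 10 UMIs over both libraries are not drawn. Zbtb20 moves from -1.73 in all members to -0.05 in Hs3st4 carriers, and Cdk6 lies between 2.87 and 5.31 in every set.

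Of the genes of axons, synapses and maturation a few were lower in ShhN members and 0 higher, at shares above the 0.409% of all genes. Of 34 measured maturation and synapse genes 3 were lower (8.82%), Nefl, Gabra2 and Syn2, a synapsin (101 and 56 UMIs, -1.03). The median was -0.15, and -0.32 in the other excitatory neurons. Snap25, of the synaptic release machinery, had 833 and 920 UMIs (-0.03). Of 36 measured axon guidance genes 2 were lower (5.56%), Nrp2 and the secreted repellent Slit3 (57 and 28 UMIs, -1.20). Their median was -0.23, and -0.22 in the other excitatory neurons. Of 12 immature neuron genes 2 were lower (16.7%), Neurod1 and the semaphorin Sema3c (186 and 88, -1.26). This list had a median of -0.12, and -0.14 in the other excitatory neurons. Gabra2, Syn2, Neurod1 and Sema3c were also among the genes higher in the Nrp2 members of both libraries. Without the Nrp2 members Nefl (-1.16), Gabra2 (-0.91) and Neurod1 (-0.93) did not pass, nor did they in Hs3st4 carriers alone. Nr4a2, a nuclear receptor of subplate and deep layer cells and the only subplate marker measured, was lower, with 399 and 211 UMIs (-1.10, -1.34 to -0.85). Of 13 measured immediate early and stress genes 0 passed, with a median of -0.45, and of 6 p53 response genes 0 passed, with -0.25.

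Markers of other cell types were present in the members, and their part in these differences was not tested beyond the sets left out above. Radial glia markers (13 genes, 0 at 0) summed to 652 and 613 CPM in wild type and ShhN members, against 1082 and 1101 CPM in all other cells, and intermediate progenitor markers (8 genes, 2 and 1 at 0) to 171 and 190 CPM against 502 and 637 CPM. Dividing cell markers (13 genes, 0 at 0) came to 164 and 447 CPM against 475 and 1564 CPM in all other cells, with 10 or more UMIs in 5 wild type and 19 ShhN members. Cajal-Retzius markers (8 genes, 2 and 4 at 0) came to 37.7 and 10.46 CPM and were led by Calb2. Oligodendrocyte lineage markers (5 genes, 1 at 0) came to 3.61 and 49.1 CPM, against 12.6 and 36.9 CPM in all other cells. Microglia (8 genes, 4 and 5 at 0), endothelial (7, 3 and 2 at 0) and mural markers (6, 1 and 2 at 0) stayed at or below 6.68 CPM. Interneuron markers (16 genes, 3 and 2 at 0) came to 412 and 603 CPM against 549 and 373 CPM in all other cells, nearly all of it Npy in the members, and to 29.9 and 30.2 CPM without that gene. Globins and Ttr summed to 7722 and 3795 CPM, with 86.4% and 87.1% of the UMIs in 5 members of each library.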

How the data were processed

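UMI counts per gene and barcode were deposited by the authors, unnormalized, as 1 matrix per group, each with 27998 genes and 737280 barcodes. Per the labels, libraries were made on the 10x Genomics Chromium droplet platform. The genome build mm10 and the tools Seurat 3, StringTie and Cell Ranger are named, per the submitters' processing notes, with roles not given in the sources used here. The matrices were tied to groups by their control and experimental prefixes.

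The members and gene lists were chosen with earlier results of these data known, so their differences are descriptions. UMIs were summed over members and scaled to CPM, with Poisson intervals for levels and binomial intervals for ratios. The size rule (50 UMIs, log2 of 1, bound of 0.5) was tested on simulated counts with Poisson error only. Such counts do not hold the clumping of UMIs in a few cells, so that test cannot show how the rule behaves with it. Named genes are the 12 highest and 12 lowest past it, ranked by the bound nearest 0, without globins, mitochondrial genes, sex-linked genes and unnamed gene models. Against other cells they are the 15, and against other excitatory neurons the 10, with the highest smaller ratio among genes in 25% of members, without Hs3st4, Rprm and Tle4. Within members they are up to 6 a direction past it in both libraries. Other genes named are members of the lists or were named after their values were seen. Excitatory neurons needed 2 UMIs of Neurod2 and Neurod6 and 0 of Gad1, Gad2 and Eomes. Scrublet, run through scanpy 1.11.5 with 6% expected, called doublets. TMM factors came from edgeR 4.0.16. Some genes and the comparisons that need them are not reported here.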

Additional observations from a re-analysis of the deposited data

How the results depend on the processing

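No paired analysis was possible because each group is 1 matrix whose barcodes do not show the sample of a cell, and for the same reason no sample could be left out. The ratio of member shares stayed between 0.892 and 0.979 under 8 of the 10 other settings, was 0.742 with no Tle4 term and, in a setting added after seeing the data, 1.15 (0.988 to 1.34) with Nrp2 members not counted. The counts of 31 higher and 34 lower genes came to 6 and 10 with a minimum of 200 UMIs, 83 and 72 with no minimum, and 10 and 19 with members thinned to 4500 UMIs, settings that change how many genes can pass. They came to 21 and 34 without called doublets, of which 20 and 26 were among the reported 31 and 34. With TMM scaling, which moves the median of all genes by 0.08, the counts were 33 and 28. Sets of members added after seeing the data gave 5 and 33 without Mki67, Top2a or Cenpf carriers, 23 and 7 without Nrp2 carriers, 3 and 13 without either, and 15 and 7 in Hs3st4 carriers alone, which hold fewer cells. Of the named genes 2 changed sign, both in Hs3st4 carriers alone: Neurod1 to 0.55 and Trps1 to 0.23, the latter on 8 and 13 UMIs. The other values of named genes kept their direction; 47 of 305 moved beyond their interval, as did 22 of 218 medians of gene lists. Of the corticothalamic genes near 0, Tbr1 kept its sign under 9 of 13 settings, Sox5 under 10, Fezf2 under 11, Foxp2 under 12 and Nxph3 under 13, and Bcl11b under 5.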

Other observations

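Npy, a neuropeptide gene best known from interneurons, was read in members that by the rule held no Gad1 or Gad2 UMI. Wild type members held 1166 Npy UMIs in 136 cells and ShhN members 1971 in 154 cells, 383 CPM (361 to 405) and 573 CPM (548 to 598), a log2 ratio of 0.58 (0.48 to 0.69). In the other excitatory neurons Npy stood at 168 and 104 CPM, with a log2 ratio of -0.69 (-0.75 to -0.63). Free RNA held it at 157 and 138 CPM. The top 5 cells held 24.2% of the UMIs in each library, so no single cell carried the level. The difference between members and other excitatory neurons was not tested, since each group has 1 library.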
